A study of Mus musculus with 6 samples.

Results

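The genes described here are 7 components of the angiopoietin and Tie receptor axis, chosen by name from the 56748 genes of the count table: the ligands *Angpt2* and *Angpt1*, the receptors *Tek* and *Tie1*, the receptor phosphatase *Ptprb*, and the transcription factors *Foxo1* and *Foxo3*. Each name had a single row in the table, and all 7 genes passed the filter on low counts. Bulk RNA-Seq was performed on endothelial cells (ECs) sorted from the spinal cord of mice at P16, in 3 control mice of genotype Tardbpflox and 3 mice of genotype Cdh5(PAC)-CreERT2;Tardbpflox, called TDP-43 iΔEC mice, or iΔEC mice in short. Both groups carried the floxed *Tardbp* gene, which encodes the RNA-binding protein TDP-43, and both received tamoxifen (1 mg/mL solution) from P5 to P7. The iΔEC mice also carried a tamoxifen-inducible Cre driven by the *Cdh5* promoter, which is active in ECs, so the groups differ in the Cre transgene as well as in the deletion, and no group with Cre alone was analysed here. The 3 libraries of each group are called mice 1, 2 and 3 by the numbers in their labels, but the sources used here do not say whether a library came from 1 animal, so the p-values measure the spread between these samples, part of which may be technical.

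Angiopoietins are secreted ligands of TEK, the receptor tyrosine kinase also called TIE2, which is found mainly on ECs. Angiopoietin-1, made largely by mural and other perivascular cells, activates TEK and keeps vessels quiescent, whereas angiopoietin-2 is made by ECs themselves, is stored in Weibel-Palade bodies and, in many settings, opposes angiopoietin-1 and loosens vessel walls. TIE1 is a related receptor without a classical angiopoietin ligand that pairs with TEK, and the phosphatase VE-PTP, encoded by *Ptprb*, removes phosphate from TEK. Active TEK signals through PI3 kinase and AKT, which keeps FOXO transcription factors out of the nucleus, and *Angpt2* is itself a known FOXO1 target in ECs.

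*Angpt2* rose 3.34-fold in iΔEC mice (95% interval 2.33 to 4.79, n = 3 per group) and was the only one of the 7 genes to pass the threshold, an adjusted p under 0.05 in limma with Benjamini-Hochberg adjustment. For *Tek* and *Ptprb* all iΔEC mice lay below all control mice in normalized counts, by much smaller amounts that did not pass it and that depended on the scaling. *Tie1*, *Foxo1* and *Foxo3* had overlapping groups, as did *Angpt1*, which had few counts (0 to 186) in all libraries. Of the 13107 genes tested, 18 passed the threshold, or 0.137%, with 4 higher (0.0305%) and 14 lower (0.107%) in iΔEC mice. Scaled by library size alone, 4 higher and 6 lower genes passed, and scaled to 7 EC marker genes, 1 higher gene passed, which was *Angpt2*. The groups did not overlap for 15.0% of all tested genes, 7.93% higher and 7.10% lower in iΔEC mice, and for 3 of these 7, 1 higher and 2 lower. An unadjusted p under 0.05 in limma was found for the same 3 members, against 4.26% of all tested genes in the direction of *Angpt2* and 656 of them in that of *Tek* and *Ptprb*. With scaling by library size alone or to the EC markers, *Angpt2* was the only one of these 3 to keep it.

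TDP-43 binds UG-rich RNA, and the longest uninterrupted TG run on the transcribed strand was therefore read for each gene from GRCm39. Those of the gene that rose, of 2 genes that lay lower and of *Tie1*, which held the shortest, are printed 5′ to 3′ with the run in capitals and 20 flanking bases on each side. All 4 runs lie in introns.
Angpt2: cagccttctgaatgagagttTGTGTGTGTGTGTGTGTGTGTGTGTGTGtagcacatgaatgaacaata
Tek: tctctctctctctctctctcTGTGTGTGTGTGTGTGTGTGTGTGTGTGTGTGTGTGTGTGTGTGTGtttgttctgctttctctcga
Ptprb: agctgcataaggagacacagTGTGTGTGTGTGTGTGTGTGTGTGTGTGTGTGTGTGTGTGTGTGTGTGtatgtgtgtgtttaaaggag
Tie1: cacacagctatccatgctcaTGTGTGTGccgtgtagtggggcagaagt
They lie at chr8:18788441-18788508 (minus strand), chr4:94651891-94651976 (plus), chr10:116141270-116141357 (plus) and chr4:118334391-118334438 (minus). The run of *Angpt2* had 14 TG units, and 50.8% of 21630 protein-coding genes held one at least as long. *Tek* had 23 units (24.9% of coding genes) and *Ptprb* 24 (20.3%). *Angpt1* had an intronic run of 26 units, which 12% of coding genes reached, *Foxo1* one of 24 (20.3%), *Foxo3* one of 22 (29.6%) and *Tie1* one of 4 (79.6%). Longer genes have more room for a long run, and whether TDP-43 binds any of these runs was not measured.

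The libraries held 44041329 to 47270654 counts in control mice and 25704871 to 45010088 in iΔEC mice, so that 3 counts, taken as the detection floor, corresponded to 0.0635 to 0.117 CPM, which for this floor and for the marker sums is the count scaled to the library total. *Tardbp*, the targeted gene, had 1973, 2282 and 2069 normalized counts in control libraries 1, 2 and 3 and 982, 599.9 and 433 in iΔEC mice 1, 2 and 3, without overlap of the groups (log2 fold change -1.62, adjusted p = 0.287 in limma and 0.0221 in DESeq2). *Masp2*, which shares 33.1% of the *Tardbp* exonic sequence on the opposite strand, had 7 counts in iΔEC mouse 3 and 0 elsewhere. The 7 EC markers *Pecam1*, *Cldn5*, *Kdr*, *Flt1*, *Vwf*, *Cdh5* and *Erg* summed to 9166 to 12950 CPM in control and 9233 to 11610 CPM in iΔEC mice. *Cldn5* had by far the highest counts of them in every library (341368 in control mouse 1, where *Flt1* was next at 87259). Its log2 fold change was -0.22, with overlapping groups. *Flt1* lay lower in every iΔEC mouse (log2 fold change -0.69, adjusted p = 0.0635 in limma and 8.1e-06 in DESeq2). So did *Kdr* (-0.26, adjusted p = 0.575 in limma), and the groups overlapped for the other markers. The scaling to EC markers used the sum of the 7 genes, with *Flt1* and *Kdr* in it, and so followed *Cldn5* most. Markers of mural cells (10 genes) summed to 513 to 909 and 434 to 1097 CPM. The 4 neuronal markers summed to 4.70 to 8.74 CPM in control and 0.815 to 2.16 CPM in iΔEC mice, and the 4 hemoglobin genes to 6304 to 9698 and 2186 to 2898 CPM, both without overlap. Markers of fibroblasts, astrocytes, oligodendrocytes, microglia and macrophages, platelets and lymphatic ECs overlapped between the groups, and *Adgre1* and *Lyve1* had 0 counts in every library. Multidimensional scaling set control mouse 2 apart on the first axis (30.3% of the variance) and iΔEC mouse 1 on the second (24.8%), and the effect of leaving out each mouse is given with the results.

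Among the ligands, *Angpt2* (ENSMUSG00000031465, minus strand of chromosome 8 of GRCm39 from 18739202 to 18791603) gave 7823, 7415 and 4750 normalized counts in control libraries 1, 2 and 3. It gave 18671, 26391 and 23770 in iΔEC mice 1, 2 and 3. The lowest iΔEC mouse was thus well above the highest control mouse. On the log2 scale the difference was 1.74 (standard error 0.23, 95% interval 1.22 to 2.26, adjusted p = 0.0318 in limma), and 13 of the tested genes had a smaller unadjusted p. The 2-sided exact permutation test over the 6 mice gave p = 0.1, the smallest it can give with 3 against 3. With each of the 6 mice left out in turn, this value lay between 1.52 and 1.91, but the limma adjusted p rose above the threshold each time, from 0.0673 without control mouse 3 to 0.164 without iΔEC mouse 1. With edgeR's quasi-likelihood test, which called 0 genes in the whole table (848 had an unadjusted p under 0.05, or 6.47%), *Angpt2* had a log2 fold change of 1.75 and an adjusted p of 0.112. The hemoglobin genes also separated the groups, and with them, the ribosomal RNA and the mitochondrial genes left out *Angpt2* had 1.77 on the log2 scale (adjusted p = 0.0405 in limma).

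**Figure D1:**
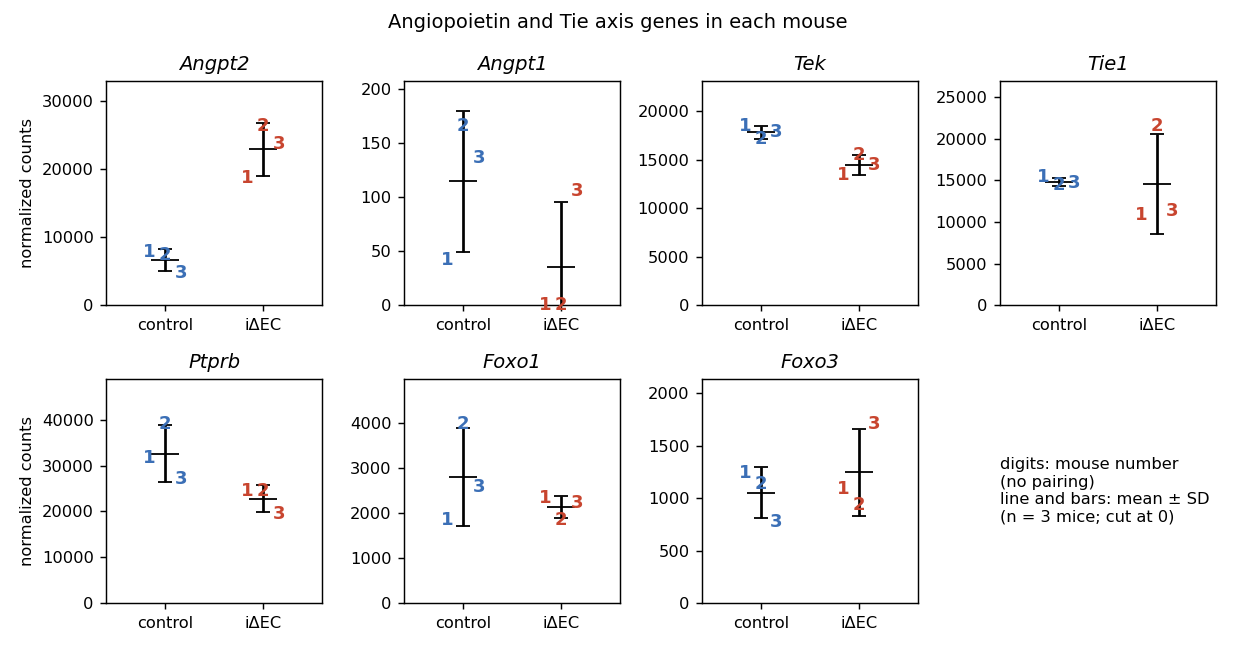
Normalized counts (vertical axes from 0, a separate scale for each gene) of the 7 genes, with control mice in blue and iΔEC mice in red; digits are mouse numbers, and lines and bars are the mean ± SD of 3 mice. The groups are separate for *Angpt2* (4750 to 7823 against 18671 to 26391), *Tek* and *Ptprb* and overlap for the others.

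Of the exonic sequence of *Angpt2*, 70.7% also belongs to *Mcph1*, a gene for a chromosome condensation protein on the opposite strand, and the library method does not mark strand. The counts assigned to *Mcph1* were 136, 0 and 452 in control mice 1, 2 and 3 and 587, 253 and 253 in iΔEC mice 1, 2 and 3. These were at most 7.17% of the summed counts of both genes, in control mouse 3, and at most 2.33% in iΔEC mice. Treated as 1 feature, *Angpt2* and *Mcph1* had a log2 fold change of 1.72 (adjusted p = 0.0250 in limma). With so few counts assigned to *Mcph1*, this value had to lie near that of *Angpt2*. It cannot show which of the 2 genes the reads of shared exons came from. *Mcph1* alone had overlapping groups (limma adjusted p = 0.583).

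*Angpt1* (ENSMUSG00000022309, minus strand of chromosome 15 from 42288058 to 42540417) was counted 50, 186 and 167 times in control mice 1, 2 and 3 and 0, 0 and 74 times in iΔEC mice 1, 2 and 3. iΔEC mouse 3 lay within the control range, so the groups overlapped. By counting error alone, a count of 0 in iΔEC mice 1 and 2 allows a level of up to 0.0667 and 0.106 CPM, and other losses are not covered. The gene passed the filter through the control mice alone, and its fitted log2 fold change depended on how the 0 counts were treated, at -5.19 (standard error 2.37, adjusted p = 0.548) in limma and -1.73 (adjusted p = 1.000) in edgeR. The mean of the normalized counts in iΔEC mice was 0.306 times that in control mice. The summed markers of mural cells, a main source of angiopoietin-1, were highest in iΔEC mouse 2 (1097 CPM), which had no *Angpt1* count. Most of that sum was *Rgs5* (21108 counts), and single mural markers differed. *Pdgfrb* and *Kcnj8* had 0 counts in control mouse 2, which had the most *Angpt1* counts. The sum of the 4 neuronal markers was lower in iΔEC mice, but its members differed: *Map2* was counted in control mouse 2 alone (396 times), and *Rbfox3* was counted 2, 0 and 0 times in the controls and 42, 16 and 50 times in iΔEC mice 1, 2 and 3 (limma adjusted p = 0.487). The part of mural or neuronal cells in the *Angpt1* counts was not tested. In bulk samples, fewer cells of a type and less RNA per cell cannot be told apart. *Gm17473*, which overlaps 11.3% of the *Angpt1* exons on the opposite strand, had 0 counts in every library.

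The balance of the 2 ligands within a library does not depend on library scaling. *Angpt2* counts were 188, 44.8 and 35.05 times those of *Angpt1* in control mice 1, 2 and 3. With *Angpt1* set at its floor of 3 counts, they were 8208 and 7377 times those of *Angpt1* in iΔEC mice 1 and 2, and they were 226 times those in mouse 3. The floor covers counting error only, so the first 2 of these values are not lower bounds. The control mouse with the highest ratio thus lay close to the lowest iΔEC mouse. No test of this ratio is given, since its value in iΔEC mice 1 and 2 is set by the floor.

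Of the receptors, *Tek* (ENSMUSG00000006386, plus strand of chromosome 4 from 94627291 to 94763224) was counted 18475, 17133 and 17798 times in control mice 1, 2 and 3 after normalization. In iΔEC mice 1, 2 and 3 the values were 13433, 15508 and 14483. Every iΔEC mouse lay below every control mouse, and no exon of another annotated gene overlaps its exons. On the log2 scale the difference was -0.35 (standard error 0.14, 95% interval -0.67 to -0.03, unadjusted p = 0.0372, adjusted p = 0.513 in limma). It was negative under all 17 alternatives, but only -0.16 with scaling by library size alone and -0.11 with scaling to the EC markers, 2 scalings that moved the median of all tested genes by 0.19 and 0.24. Under these 2 scalings the unadjusted limma p of *Tek* was 0.317 and 0.584.

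*Tie1* (ENSMUSG00000033191, minus strand of chromosome 4 from 118328385 to 118347261) gave 15353, 14431 and 14668 normalized counts in the controls, against 10884, 21527 and 11340 in iΔEC mice 1, 2 and 3. The control mice were alike, while iΔEC mouse 2 lay above all of them and mice 1 and 3 below. On the log2 scale the difference was -0.16 (standard error 0.24, 95% interval -0.71 to 0.40, adjusted p = 0.854 in limma), with a positive sign under library-size scaling (0.03), under scaling to the EC markers (0.10) and without iΔEC mouse 1 (0.05).

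*Ptprb* (ENSMUSG00000020154, plus strand of chromosome 10 from 116111428 to 116225440) gave 31675, 39157 and 26979 normalized counts in the controls, against 24432, 24460 and 19358 in iΔEC mice 1, 2 and 3. The groups did not overlap, although control mouse 3 was near the 2 highest iΔEC mice. On the log2 scale the difference was -0.53 (standard error 0.17, 95% interval -0.91 to -0.15, unadjusted p = 0.0116, adjusted p = 0.395 in limma). It was negative under all 17 alternatives, and closest to 0 (-0.30) with scaling to the EC markers. The unadjusted limma p of *Ptprb* was 0.0851 with scaling by library size alone and 0.177 with scaling to the EC markers.

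The ratio of *Angpt2* to its receptor *Tek* separated the groups within each library. *Angpt2* had 0.423, 0.433 and 0.267 times the counts of *Tek* in control mice 1, 2 and 3 and 1.39, 1.70 and 1.64 times in iΔEC mice 1, 2 and 3. The log2 ratio was -1.45 ± 0.39 and 0.65 ± 0.16 (SD, n = 3 mice each), a difference of 2.10 (2-sided exact permutation test, p = 0.1, the smallest possible) that ranged from 1.88 to 2.22 when single mice were left out.

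*Foxo1* (ENSMUSG00000044167, plus strand of chromosome 3 from 52175757 to 52260642) gave 1828, 3977 and 2563 normalized counts in the controls, against 2319, 1845 and 2227 in iΔEC mice 1, 2 and 3. All iΔEC mice lay within the control range, which control mouse 2 widened. On the log2 scale the difference was -0.34 (standard error 0.34, 95% interval -1.11 to 0.42, adjusted p = 0.757 in limma). *Foxo3* (ENSMUSG00000048756, minus strand of chromosome 10 from 42057837 to 42154007) gave 1241, 1134 and 777 normalized counts in the controls, against 1091, 934 and 1713 in iΔEC mice 1, 2 and 3. iΔEC mouse 3 was the highest, and the other 5 mice were intermixed. On the log2 scale the difference was 0.15 (standard error 0.39, 95% interval -0.73 to 1.02, adjusted p = 0.923 in limma), with a negative sign without control mouse 3 (-0.05) or iΔEC mouse 3 (-0.03). The counts report transcript levels and hold no information on whether FOXO proteins were in the nucleus. The intervals reach -1.11 for *Foxo1* and 1.02 for *Foxo3*, so differences up to these sizes lie within the error of 3 mice per group. *Gm20402*, whose exons lie almost wholly opposite those of *Foxo1*, had 2 counts in control mouse 2 and 0 elsewhere.

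Levels were compared between genes only per length, as CPM per kb of exonic sequence, with the totals over the tested genes here multiplied by their TMM scaling factors. In control mice the receptors led, with *Tek* at 82.5 ± 4.54 and *Tie1* at 82.3 ± 3.88 CPM per kb (SD, n = 3 mice), 2 genes whose ranges overlapped and that were not separated by the spread between mice. *Ptprb* followed at 63.05 ± 10.5, *Angpt2* at 38.6 ± 9.34, *Foxo1* at 8.32 ± 3.09, *Foxo3* at 3.16 ± 0.710 and *Angpt1* at 0.440 ± 0.245 CPM per kb, each with a range below that of the gene before it. In iΔEC mice *Angpt2* came first, at 129.6 ± 21.8 CPM per kb, and was above *Tie1* (78.8 ± 32.1) in each of the 3 mice, although the ranges of these genes overlapped because of mouse 2. *Tie1* and *Tek* (65.3 ± 4.43) were again not separated, and *Ptprb* (42.95 ± 5.42), *Foxo1* (6.22 ± 0.761), *Foxo3* (3.66 ± 1.22) and *Angpt1* (0.132 ± 0.229) kept their order. *Angpt2* therefore moved from the fourth place to the first, and the same order was found with the longest transcript as the length.

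**Figure D2:**
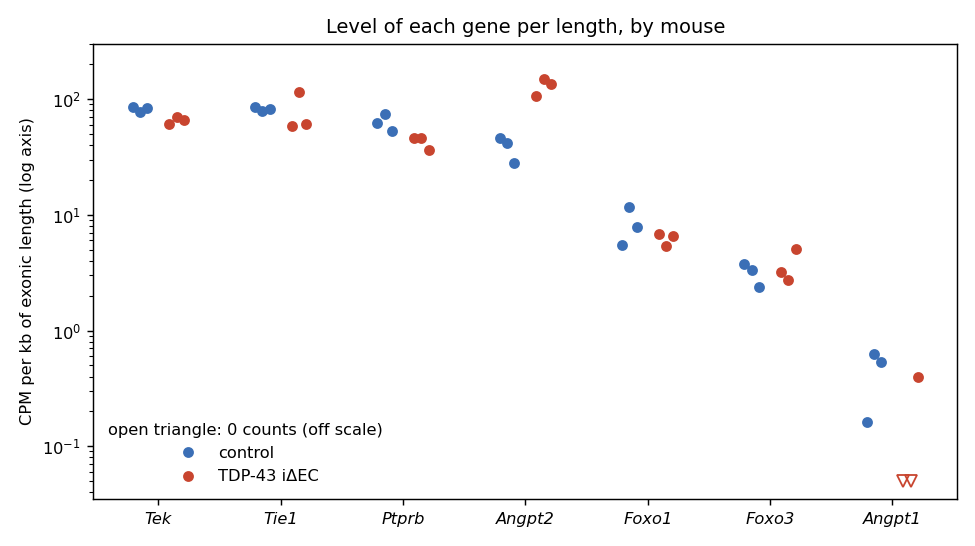
CPM per kb of exonic length (log axis) of each gene, ordered by its control mean, with 1 point per mouse (blue, control; red, iΔEC); open triangles are mice with 0 counts, drawn off scale. *Angpt2* lies below *Tek*, *Tie1* and *Ptprb* in control mice (mean 38.6) and above them on average in iΔEC mice (129.6), and *Angpt1* lies below 1 CPM per kb throughout.

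A further 110 genes around the axis were read from the same limma fit in 5 lists. In limma 0 of those tested passed the threshold, against 0.137% of all tested genes, a share so small that this 0 says little. The edgeR test called 0 genes in the whole table, so its 0 for the lists carries no information. The list of relatives held other angiopoietins and angiopoietin-like proteins, FOXO factors and phosphatases of the *Ptprb* family. Of its 13 genes, 5 had 0 counts in every library, *Angpt4* and *Foxo6* among them, and 4 were tested, with a median log2 fold change of -1.01 against -0.02 for all tested genes. In limma 0 of the 4 had an unadjusted p under 0.05, against 9.27% of all tested genes. DESeq2 called 0 of the 4, against 1.91% of all genes it tested. Of these 4 genes *Angptl4*, which encodes an inhibitor of lipoprotein lipase, had the most counts. Its normalized counts were 7339 ± 1333 in control and 5869 ± 1198 in iΔEC mice (adjusted p = 0.596 in limma). *Foxo4* was fitted at -4.04 on the log2 scale (standard error 2.13), from 164 to 490 counts in control mice and 475, 0 and 6 counts in iΔEC mice 1, 2 and 3.

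The 10 genes of other Tie ligands, receptor-shedding proteases and partners had 8 tested genes, 4 with a positive and 4 with a negative log2 fold change (median -0.02). In limma 0 of the 8 had an unadjusted p under 0.05, against 9.27% of all tested genes. DESeq2 called 0 of the 8, against 1.91% of all genes it tested. *Svep1*, whose protein binds TIE1, had 0 counts in every library, and *Lect2*, another TIE1 ligand gene, had 42 counts in control mouse 3 and 0 elsewhere. *Cdh5*, which encodes VE-cadherin, a substrate of VE-PTP, had 6358 ± 597 and 6159 ± 558 normalized counts (log2 fold change -0.09, standard error 0.19). *Itgb1*, the gene of the integrin chain that angiopoietins can also bind, had -0.05 on the log2 scale (standard error 0.27).

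Of the 28 genes of the signaling cascade below TEK, 27 were tested, with a median log2 fold change of -0.11, and DESeq2's Wald test, which called 1.91% of all genes it tested, called 1. An unadjusted limma p under 0.05 was found for 1 gene in each direction, against 9.27% of all tested genes. *Grb14*, an adaptor that binds TEK and the insulin receptor, was the gene that DESeq2 called (adjusted p = 0.0124). Its normalized counts were 2885, 3109 and 2896 in control and 1412, 1535 and 1178 in iΔEC mice, which puts every iΔEC mouse far below the controls, and limma gave -1.14 on the log2 scale (standard error 0.27, adjusted p = 0.271). *Tnip2* encodes ABIN2, which binds TEK and restrains NF-κB. Its normalized counts were 805, 143 and 751 in control and 1366, 978 and 2086 in iΔEC mice, and limma gave 1.57 (standard error 0.67, adjusted p = 0.522). *Akt1* and *Akt2* had log2 fold changes of 0.33 and -0.09, the PI3 kinase subunit gene *Pik3ca* -0.21 and the endothelial nitric oxide synthase gene *Nos3* -0.20, all with overlapping groups.

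Of 32 genes known as FOXO targets in ECs or other cells, 29 were tested, 16 with a positive and 13 with a negative log2 fold change (median 0.16). In limma 2 in each direction had an unadjusted p under 0.05, against 9.27% of all tested genes, and DESeq2 called 2, against 1.91% of all. *Insr*, the insulin receptor gene, had 9706, 15959 and 10013 normalized counts in control and 5164, 3995 and 7655 in iΔEC mice, with no overlap (log2 fold change -1.16, standard error 0.28, adjusted p = 0.271 in limma and 0.0428 in DESeq2). *Klhl24*, which encodes a ubiquitin ligase adaptor, had 3473 ± 407 and 1814 ± 207 normalized counts (SD, n = 3 mice each), a difference of -0.98 on the log2 scale (adjusted p = 0.315 in limma and 0.0444 in DESeq2). *Trib1*, a pseudokinase gene, and *Klf6*, a zinc finger factor gene, had log2 fold changes of 1.00 and 0.50 (adjusted p = 0.521 and 0.522 in limma) and lay higher in every iΔEC mouse. The fitted values of the list ran from -1.16 for *Insr* to 5.07 for *Birc5*, and the highest of them, those of *Birc5*, *Sesn2* (4.82) and *Myc* (4.14), were of genes with 0 counts in a control library and standard errors above 2. Values near 0 were also found, such as those of the thioredoxin inhibitor gene *Txnip* (0.02, standard error 0.22) and the stress-response gene *Sesn1* (-0.05, standard error 0.27). FOXO targets lay on both sides of 0, as did all tested genes, 49.3% of which had a positive log2 fold change. The list also holds genes known to be repressed by FOXO factors, such as *Birc5* and *Myc*. Its signs and median therefore give no direction of FOXO activity.

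Of 27 genes of Weibel-Palade bodies, the storage granules that hold angiopoietin-2, 22 were tested (median log2 fold change 0.06). DESeq2 called 0 of them, against 1.91% of all genes it tested. In limma 1 of the 22 had an unadjusted p under 0.05, against 9.27% of all tested genes. That gene, *Stx3*, encodes a syntaxin of granule release and lay at 3060, 3634 and 3640 normalized counts in control against 2147, 2262 and 1352 in iΔEC mice (log2 fold change -0.87, standard error 0.28, adjusted p = 0.407 in limma). *Vwf*, which encodes the main granule cargo, had 16747 ± 1973 and 16077 ± 1842 normalized counts in control and iΔEC mice (log2 fold change -0.09, standard error 0.16). *Plat* and *Edn1*, whose products are also stored there, had log2 fold changes of 0.05 and 0.09. *Selp*, the P-selectin gene, was almost undetected, with 25 counts in control mouse 1, 14 in iΔEC mouse 2 and 0 elsewhere.

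**Figure D3:**
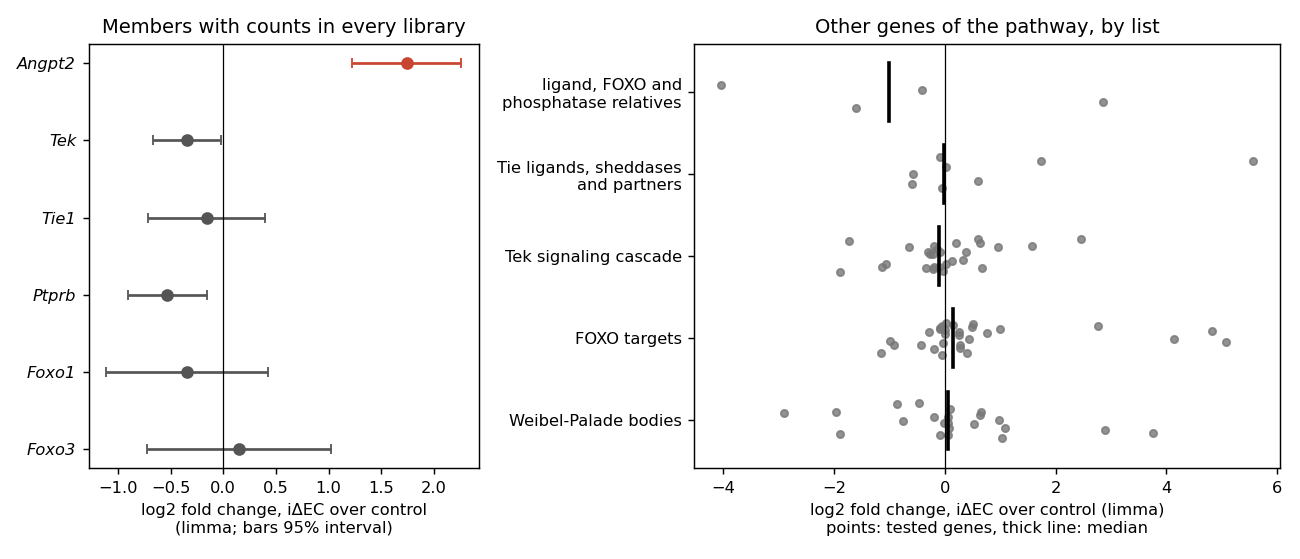
Left, limma log2 fold change (iΔEC over control) with its 95% interval for the 6 genes counted in every library, red where the adjusted p was under 0.05; right, log2 fold changes of the tested genes in 5 lists, with thick lines at the medians. *Angpt2*, at 1.74, is the only member with an adjusted p under 0.05, and the list medians run from -1.01 to 0.16.

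Among 8981 other genes, each counted 10 times or more in all 6 libraries, the 5 whose TMM-scaled log2 CPM followed that of *Angpt2* most closely over the 6 libraries were *Zfp110* (Pearson r = 0.997), *Phgdh* (0.993), *Hspa5* (0.988), *Sfr1* (0.984) and *Arf1* (0.982). These values describe 6 points in 2 groups that differ in *Angpt2* and share the same libraries and depths, so any gene with a large difference between the groups scores high. *Hspa5*, the gene of BiP, a chaperone of the endoplasmic reticulum, was the 1 gene of the 5 past the limma threshold (log2 fold change 0.96, standard error 0.13, adjusted p = 0.0318). *Phgdh*, which encodes the first enzyme of serine synthesis, had 266, 239 and 178 normalized counts in control and 1006, 1481 and 1469 in iΔEC mice (log2 fold change 2.44, standard error 0.65, adjusted p = 0.311 in limma). *Zfp110*, a zinc finger gene, had 676, 658 and 497 against 1223, 1422 and 1462 normalized counts (adjusted p = 0.441 in limma). In both genes the order of the mice was close to that in *Angpt2*, with control mouse 3 lowest and iΔEC mouse 1 the lowest of its group. Among the other members the same correlation was -0.84 for *Tek*, -0.75 for *Ptprb*, -0.52 for *Foxo1*, -0.08 for *Tie1* and 0.39 for *Foxo3*. It was not computed for *Angpt1*, which had 0 counts in iΔEC mice 1 and 2.

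The *Angpt2* difference was also computed with other ways of handling the counts. With the 11 alternatives of test, scaling, filter or block, all 6 mice included, the log2 fold change was between 1.68 and 1.98, and the adjusted p was under the threshold in 10 of them, edgeR being the exception. With 5 mice it was under the threshold in 0 of 6 cases in limma, although the unadjusted p of *Angpt2* was at most 0.00021.

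**Figure D4:**
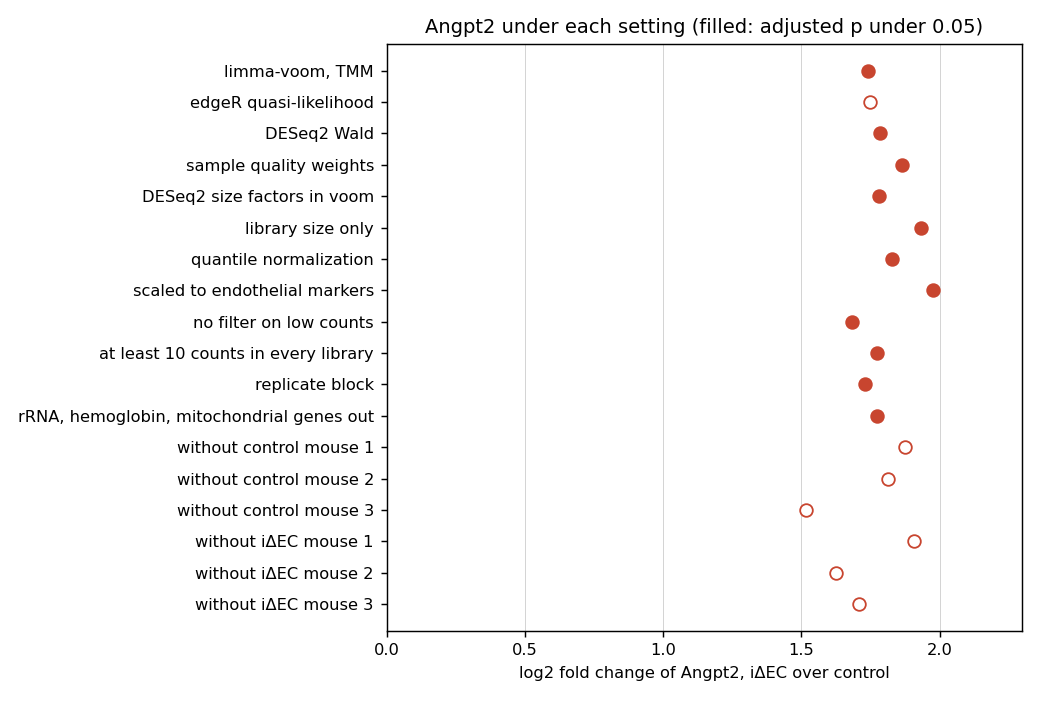
Log2 fold change of *Angpt2* (horizontal axis from 0) in the limma fit and under each of 17 alternatives, filled where the adjusted p was under 0.05. All values lie between 1.52 and 1.98, and the 7 open points are edgeR and the 6 fits with 1 mouse left out.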

How the data were processed

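RNA-Seq counts of 6 libraries, 3 per genotype, were used. The authors aligned reads of SMARTseq2 libraries to GRCm39 with STAR 2.7.8a and deposited estimated counts per GENCODE M30 gene from RSEM 1.3.0 at default options, unscaled and as whole numbers. RNA input and PCR cycles varied between samples, and no molecular identifiers are described, so amplification copies are counted and detection floors cover counting error only. Groups came from the sample labels. Positions, exons and overlaps came from GENCODE M39 (98.7% of identifiers matched).

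All genes were analyzed together by limma 3.58.1 (R 4.3.3) on voom weights, with TMM scaling and filterByExpr from edgeR 4.0.16, with Benjamini-Hochberg adjustment over all tested genes and intervals at 95%. Normalized counts used size factors of DESeq2 1.42.0. Single values were tested by 2-sided exact permutation over mice. The procedures were tested on simulated data. Members and lists were chosen with earlier results of these data known. Besides the members, *Tardbp*, overlapping genes and marker genes, the text names per list the genes past the threshold, up to 4 with the largest change among those with unadjusted p under 0.05 and separate groups, the 5 genes most like *Angpt2*, and some further genes chosen after their values were seen. Alternatives were edgeR and DESeq2 tests, sample weights, 4 other scalings, 2 other filters, a replicate block, omission of ribosomal, hemoglobin and mitochondrial genes, and each mouse left out.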

Additional observations from a re-analysis of the deposited data

How the results depend on the processing

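Of the 7 genes, *Angpt1*, *Tek*, *Ptprb* and *Foxo1* kept their sign and stayed short of the threshold under every alternative that gave a value (*Angpt1* had none with at least 10 counts in every library). *Angpt2* lost its call in edgeR (1.75) and with each mouse left out (1.52 to 1.91), as did its sum with *Mcph1* (1.74 in edgeR, adjusted p = 0.0958, and 1.53 to 1.88). The sign of *Tie1* turned with library size only (0.0277), with scaling to EC markers (0.10) and among the fits with a mouse left out (-0.46 to 0.05, positive without iΔEC mouse 1 at 0.0546), and that of *Foxo3* among the latter (-0.0529 without control mouse 3, -0.0345 without iΔEC mouse 3, up to 0.28). The cause of these changes was not tested.

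The number of genes past the threshold, 4 higher and 14 lower, became 0 and 0 in edgeR, 105 and 142 in DESeq2, 17 and 23 with quantile normalization, 1 and 0 with scaling to EC markers, 27 and 49 without a filter (21324 genes tested) and 10 and 29 with at least 10 counts in every library (8982 tested). The lower genes numbered 6 with library size only and 9 without ribosomal RNA, hemoglobin and mitochondrial genes. With a mouse left out there were 0 to 1 higher and 0 to 13 lower genes. In the lists, DESeq2 called 1 gene of the TEK cascade and 2 FOXO targets. Scaling to EC markers moved the list medians to 0.15 for the TEK cascade, 0.38 for FOXO targets and 0.30 for Weibel-Palade bodies, and leaving out the filter moved that of the relatives to 0.48 (8 tested). With a mouse left out the medians ran from -0.91 to -0.19 for the relatives, -0.13 to 0.51 for Tie ligands and partners, -0.17 to 0.19 for the TEK cascade, -0.06 to 0.19 for FOXO targets and -0.12 to 0.18 for Weibel-Palade bodies. By longest transcript, levels were 0.703 for *Angpt1*, 99.6 for *Tek* and 90.7 for *Tie1* in control mice, and 78.85 for *Tek* and 49.1 for *Ptprb* in iΔEC mice (CPM per kb).

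No pairing by label number was seen: same-numbered libraries correlated at -0.07, -0.13 and -0.02 in their deviations from the group means. With 3 libraries per group, these values cannot exclude a shared litter or batch. With the replicate block *Angpt2* had 1.73 (log2 scale, limma adjusted p = 0.0387), 3 higher and 19 lower genes passed, and no call of the 7 genes changed. Leaving out control mouse 2 shifted the median of all tested genes by -0.15. The difference in the log2 ratio of *Angpt2* to *Tek* was between 1.88 and 2.22 over its alternatives. Genes such as *Angpt1* are limited by their few counts and by the 3 mice per group. The counts of *Angpt1* did not follow depth, with 0 in iΔEC mouse 1 (45010088 counts in the library) and 74 in mouse 3 (25704871). Genes with any count ranged from 12972 in control mouse 2 to 16557 in control mouse 1. The part of library quality in these counts was not tested.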

Other observations

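Several genes of the lists had groups that did not overlap without an unadjusted p under 0.05 in limma, and they were chosen after their values were seen. Of all tested genes, 15.0% had groups that did not overlap, 7.93% higher and 7.10% lower in iΔEC mice. *Birc5*, the survivin gene, and *Myc*, both known to be repressed by FOXO factors, are examples. *Birc5* was counted 115, 0 and 473 times in the controls and 657, 1189 and 1013 times in iΔEC mice 1, 2 and 3 (limma adjusted p = 0.546). *Myc* was counted 600, 0 and 546 times in the controls and 886, 760 and 916 times in iΔEC mice 1, 2 and 3 (limma adjusted p = 0.564). Both were at 0 in control mouse 2, the library that stood apart. *Gsk3b* and *Sos1* of the TEK cascade lay higher in every iΔEC mouse (log2 fold changes 0.96 and 0.66), and *Grb7*, an adaptor related to *Grb14*, lay lower (-1.72, adjusted p = 0.539 in limma). *Adam17*, a protease that can shed TIE1, lay lower as well (-0.59, adjusted p = 0.558 in limma).

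A further 2 list genes were counted mainly in iΔEC mice 1 and 2. *Esm1*, a tip cell gene, was counted 4, 0 and 2 times in the controls and 125, 220 and 1 times in iΔEC mice 1, 2 and 3. It was not tested, since too few libraries reached the count that the filter asks for. *Itgb3*, an integrin gene, was counted 42, 0 and 75 times in the controls and 1571, 706 and 19 times in iΔEC mice (adjusted p = 0.570 in limma). In both genes the count of iΔEC mouse 3 was within the range of the controls.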
